A study of Arabidopsis thaliana with 6 samples.

Results

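The xyloglucan, mannan and expansin genes described here encode enzymes and proteins that loosen the plant cell wall, and they were chosen by name as 10 of the 32833 genes in the deposited table. They were XTH4, XTH5, XTH16, XTH22, XTH31 and XTH33 (xyloglucan endotransglucosylase/hydrolases), MAN5, MAN6 and MAN7 (endo-beta-mannanases) and EXPA2 (an alpha-expansin). RNA-seq was made from fresh Arabidopsis thaliana seeds of 2 genotypes: 3 libraries were from Columbia-0 (Col-0), the wild type, and 3 from asf1a1b, a double mutant of the histone chaperone genes ASF1A and ASF1B. The labels name no mutant alleles, no background other than the genotype and no treatment that differs between the groups. They give a harvest within a day and also a cold stratification, so whether the sequenced seeds were stratified is not settled. Whether the replicate libraries were grown and harvested separately is not stated, and the spread that the p-values rest on may therefore be technical.

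Xyloglucan is a hemicellulose that coats and tethers cellulose, and XTH enzymes cut its chains and rejoin them or, in some members, hydrolyse them. Mannans are abundant in the walls of the endosperm, the cell layer that encloses the embryo, and mannanases cut their backbone. Expansins loosen walls without hydrolysis. Weakening of the endosperm and growth of the radicle are both needed for germination, and MAN5, MAN6, MAN7 and EXPA2 are known from germinating Arabidopsis seeds.

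Values are TPM, a length-scaled expression level, as the authors deposited it after rescaling between libraries, and are called rescaled TPM. Read numbers recovered from these values came to between 42771324 and 56017412 per library. ASF1A averaged 16.7 ± 1.23 rescaled TPM in wild-type seeds against 2.33 ± 0.237 in the mutant, and ASF1B 2.97 ± 1.21 against 0.256 ± 0.0902 (SD, n = 3). EPR1, an extensin-like gene of the endosperm, lay between 6904 and 11131 rescaled TPM in all 6 libraries and did not pass the test (limma adjusted p = 0.706). The other endosperm markers, ZOU, NAC25 and NAC1L, summed to less than 1 rescaled TPM in every library. The first principal component of all tested genes separated the genotypes (69.5% of the variance) and the second set replicate 1 of both genotypes apart from the others (18.9%). Genes of low level were often highest in asf1a1b replicate 2: of 11056 genes with reads but below the level tested, 38.7% had their highest value there.

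Expression was compared with limma on log2(value + 1) for genes whose 6 libraries averaged at least 1 rescaled TPM, called here the level tested, and a gene rose or fell where its adjusted p was under 0.05. Of the 10 genes, 5 reached that level, 2 rose (XTH22 and MAN7), 1 fell (XTH5), 2 did not pass (MAN5 and MAN6) and the other 5 lay below it, XTH4, XTH16 and EXPA2 with traces of reads and XTH31 and XTH33 with none. Of the 14663 genes tested, 30.6% passed, 16.1% as higher and 14.5% as lower in asf1a1b. With 5 tested genes, 3 calls are too few to set apart from that share. The median log2 fold change of the 5 was 0.54, beside 0.01 over all tested genes, and XTH22 was among them only through its mutant level. Groups without overlap were found for 4 of the 5, and for 47.5% of all tested genes. The authors' deposited table, which holds their own log2 fold changes and p-values, lists 5 of the 10 genes, and 3 have an adjusted p under 0.05 (XTH22, MAN7 and XTH5), as do 38.5% of its genes. With no filter on low values 8 of the 10 could be tested and 2 passed, beside 5055 of all 25774 genes tested that way. By mean level, the order in Col-0 was MAN6, MAN5, XTH5, MAN7, XTH22, EXPA2 and XTH16, in which XTH5 and MAN7 overlapped and the other neighbours did not. In asf1a1b it was XTH22, MAN6, MAN7, MAN5, XTH5, EXPA2, XTH4 and XTH16, in which XTH22 and MAN6 overlapped, as did EXPA2, XTH4 and XTH16.

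XTH22 and its neighbour XTH25 gave the widest contrast among these genes, and the 250 bases before each annotated start are shown because the pair lies on the same strand, 565 bases apart, and moved in opposite directions. XTH22, also called TCH4, is a touch-responsive member of the family. The sequences were read from the RefSeq TAIR10.1 assembly, whose annotation was also used, and the files' build per the submitters' processing notes is TAIR10. They run 5′ to 3′ on the minus strand, at chr5:23308681-23308930 for XTH22 and chr5:23306441-23306690 for XTH25, and both windows lie outside annotated genes. Capitals mark matches to the searched motifs.
XTH22: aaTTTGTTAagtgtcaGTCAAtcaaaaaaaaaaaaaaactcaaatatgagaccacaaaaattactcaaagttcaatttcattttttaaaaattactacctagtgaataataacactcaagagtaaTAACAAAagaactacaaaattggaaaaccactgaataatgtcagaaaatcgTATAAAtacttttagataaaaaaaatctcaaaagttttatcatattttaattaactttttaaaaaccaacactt
XTH25: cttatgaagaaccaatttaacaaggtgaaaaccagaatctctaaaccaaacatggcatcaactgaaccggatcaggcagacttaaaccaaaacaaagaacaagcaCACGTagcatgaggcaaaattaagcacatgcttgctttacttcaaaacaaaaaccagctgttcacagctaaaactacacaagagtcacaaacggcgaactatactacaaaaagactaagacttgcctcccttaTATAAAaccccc

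Both strands were searched for 7 motifs. Those of abscisic acid and light response were the G-box, CACGTG, and the shorter core that it contains, ACGTG. Gibberellin response was represented by TAACAAA and the sites of WRKY factors by TTGAC. Seed gene expression was represented by the RY core, CATGCA. The TATA motif was written as TATAAA, and the last motif was the short palindrome CGCG. The XTH22 window held TAACAAA at 2 places, at 248 to 242 and at 125 to 119 bases before the start, and TTGAC and TATAAA once each. The XTH25 window held ACGTG and TATAAA once each and neither TAACAAA nor TTGAC. Over 27443 protein-coding genes, 16.1% of such windows held TAACAAA, 44.9% TTGAC, 22.9% ACGTG and 47.3% TATAAA. These matches describe letters in the windows and no binding was measured.

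XTH22 (AT5G57560, chr5:23307006-23308680, minus strand, 2 exons) was barely read in wild-type seeds and had the highest mean of the 10 genes in mutant seeds, 15.9 beside 14.8 for MAN6. That order rested on asf1a1b replicate 2, without which the means were 10.05 and 15.1, and in replicate 1 XTH22 lay below MAN6 and MAN7. Its rescaled TPM was 0.800, 0.536 and 0.532 in Col-0 replicates 1, 2 and 3, from 43, 28 and 30 reads, and 4.14, 27.6 and 16.0 in asf1a1b replicates 1, 2 and 3, from 195, 1842 and 910 reads. The groups did not overlap, and the mutant libraries differed widely among themselves, with replicate 1 lowest and replicate 2 highest. The mean rose from 0.623 ± 0.154 to 15.9 ± 11.7 (SD, n = 3). The ratio of means was 25.5 and the log2 fold change 3.07 ± 0.55 (SE; adjusted p = 0.00705 in limma). This call held whichever single library was left out, with adjusted p up to 0.0395 in limma, while the ratio of means was 16.1 without asf1a1b replicate 2. XTH22 entered the test through its mutant level, since its Col-0 mean lay under the minimum of 1 that the mean over all libraries had to reach. The authors' deposited table marks it up at 4.67 on the log2 scale (adjusted p 6.79e-16), among 8.76% of its genes marked up or down. In bulk seeds, more cells that express a gene and more RNA per cell cannot be told apart, here and in the results that follow.

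XTH25 (AT5G57550, chr5:23304782-23306440, minus strand, 3 exons), not one of the 10 genes, lies directly downstream of XTH22 and went the other way. It was among the most abundant transcripts of the wild-type seeds, in place 45 of all genes by its Col-0 mean. Its rescaled TPM was 3743, 3157 and 3421 in the Col-0 libraries and 1309.7, 774 and 1060.3 in asf1a1b, again without overlap. The mean fell from 3440.0 ± 293 to 1048 ± 268 (SD, n = 3), which is a log2 fold change of -1.74 ± 0.23 (SE; adjusted p = 0.00263 in limma). The 2 other XTH genes of the tandem run were close to silent, with XTH12 listed at 0 in all libraries and XTH13 at 1 read or none in each. On the other side of XTH22 the noncoding gene AT5G08715 had 1 read over Col-0 and 2 over asf1a1b. The coding sequences of XTH22 and XTH25 are identical at 73.0% of aligned bases, and the longest stretch they share without a difference is 23 bases.

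**Figure D1:**
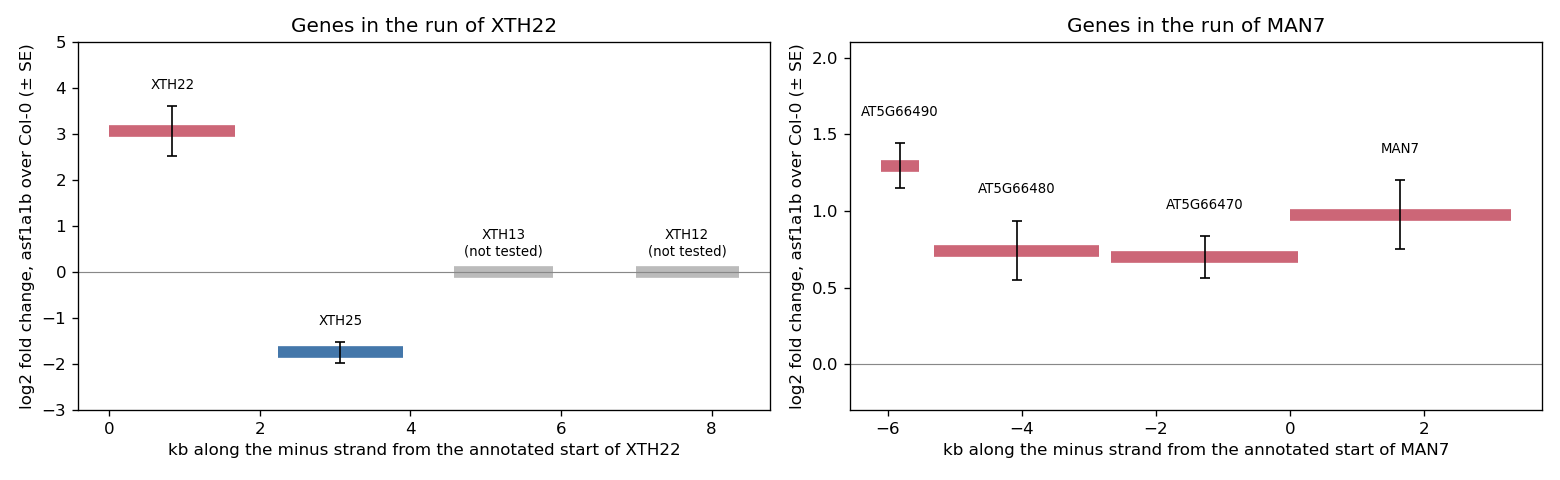
Log2 fold changes (asf1a1b over Col-0, on log2(value + 1), whiskers SE) of the genes around XTH22 and MAN7, each drawn over its extent in kb along the minus strand from the annotated start of that gene. XTH22 at 3.07 and XTH25 at -1.74 stand on opposite sides of 0, grey bars at 0 mark only the place of genes below the level tested, and the 4 genes of the MAN7 run all lie above 0.

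By the rule for likeness, the genes closest to XTH22 over the 6 libraries (Pearson correlation of log2(value + 1), over the 9859 genes whose mean reached 5) were CAB1 (AT1G29930, a chlorophyll a/b-binding protein of the light-harvesting antenna, r = 0.997), AT2G16510 (r = 0.997) and AT5G15640 (r = 0.996). All 6 libraries and their depth are shared by these points, and 303 genes exceeded 0.95, so the order says little. A difference between the groups in the same direction also raises r by itself. The mean of 5 was reached by CAB1 only through its mutant level (0.436 in Col-0 and 11.7 in asf1a1b). CAB1 had 0.505, 0.322 and 0.481 rescaled TPM in the Col-0 libraries and 2.55, 19.9 and 12.6 in asf1a1b, with the mutant libraries in the order seen for XTH22. The level of CAB1 is uncertain, because other genes of its family are almost the same in sequence and may share its reads. Markers of green tissue differed as well. Of 5 such markers 3 rose, among them RBCS1A, a small subunit of Rubisco, from 16.8 to 71.0 rescaled TPM, 1 did not pass and 1 was below the level tested, where 16.1% of all tested genes rose. PSBO1, another of the 3, was tested only through its mutant level (0.378 in Col-0 and 2.88 in asf1a1b). The summed level of the 5 was 34.2 to 39.5 in Col-0 and 96.9 to 129.6 in asf1a1b. RBCS1A and PSBP1, which both rose, made up most of this sum, so it says little about the other markers. RCA, the marker that did not pass, had means of 5.42 in Col-0 and 6.07 in asf1a1b (limma adjusted p = 0.636). LHCB2.1, an antenna gene, was at 0.042, 0 and 0 in Col-0 and at 0.216, 1.57 and 0.654 in asf1a1b, again highest in replicate 2. Among the mutant libraries PSBO1 and RCA were also highest in replicate 2. RBCS1A was highest in asf1a1b replicate 3 (49.3, 72.5 and 91.3) and PSBP1 in replicate 1 (40.4, 26.7 and 30.5). The order of XTH22 was thus not shared by all 5 markers. Of 7 markers of seed coat mucilage cells 2 rose, 0 fell, 3 did not pass and 2 were below the level tested, beside 16.1% of all tested genes higher and 14.5% lower. PRX36, one of those that rose, was tested only through its mutant level (0.819 in Col-0 and 5.35 in asf1a1b), and FLY1, one that did not pass, was lower past the threshold with the replicate number as a block (adjusted p 0.0716 without it and 0.0259 with it, limma). The summed level of the 7 was 125 to 142 in Col-0 and 185 to 234 in asf1a1b. Most of that sum was SBT1.7, the other gene that rose, with 113, 112 and 132 in Col-0 and 208, 170 and 218 in asf1a1b. The sum therefore says little about the other markers, of which MUM4, PMEI6 and FLY1 had a lower mean in asf1a1b. The part of any of these tissues in the XTH22 result was not tested.

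XTH5 (AT5G13870, chr5:4474922-4477090, minus strand, 4 exons), another family member, was lower in the mutant. It had 2.17, 2.66 and 2.19 rescaled TPM in the Col-0 libraries, from 141, 168 and 149 reads, and 0.966, 1.52 and 1.52 in asf1a1b, from 55, 123 and 105 reads. All mutant libraries lay below all wild-type libraries. The mean fell from 2.34 ± 0.279 to 1.34 ± 0.322 (SD, n = 3), 1.75 times lower and -0.52 ± 0.16 on the log2 scale (SE; adjusted p = 0.0410 in limma). The call was close to the threshold. It ended without Col-0 replicate 2 or 3 and without asf1a1b replicate 1, 2 or 3 (limma adjusted p 0.148, 0.0816, 0.0682, 0.0772 and 0.0904), with no filter on low values (0.0662) and with each library set to the same total (0.0552).

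XTH4, known from woody and vascular tissue, and XTH16 were read at traces. XTH4 (AT2G06850, chr2:2763449-2765743, plus strand) had no read in Col-0 and 2, 27 and 5 reads in asf1a1b replicates 1, 2 and 3, or 0.042, 0.398 and 0.086 rescaled TPM. Against a floor of 3 counts over the Col-0 group, which covers counting error in Col-0 only, its mutant mean of 0.175 was 9.64-fold higher. Without asf1a1b replicate 2 it was 3.52-fold above that floor, from 2 and 5 reads. XTH16 (AT3G23730, chr3:8550037-8551403, plus strand) gave 1, 0 and 0 reads in wild-type seeds and 0, 18 and 2 in asf1a1b, so that 18 of its 21 reads came from asf1a1b replicate 2. Both genes were below the level tested, and with no filter on low values neither XTH4 nor XTH16 passed (limma adjusted p = 0.196 and 0.364). XTH31, a member with mainly hydrolase activity, and XTH33, predicted to be anchored at the plasma membrane, were listed at 0 in all 6 libraries. The absence of reads allows up to 0.0103 rescaled TPM for XTH31 (AT3G44990, chr3:16446935-16448844) and 0.0119 for XTH33 (AT1G10550, chr1:3479066-3481041), at 3 counts over the 6 libraries. At this depth no difference in these 2 genes was detectable.

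**Figure D2:**
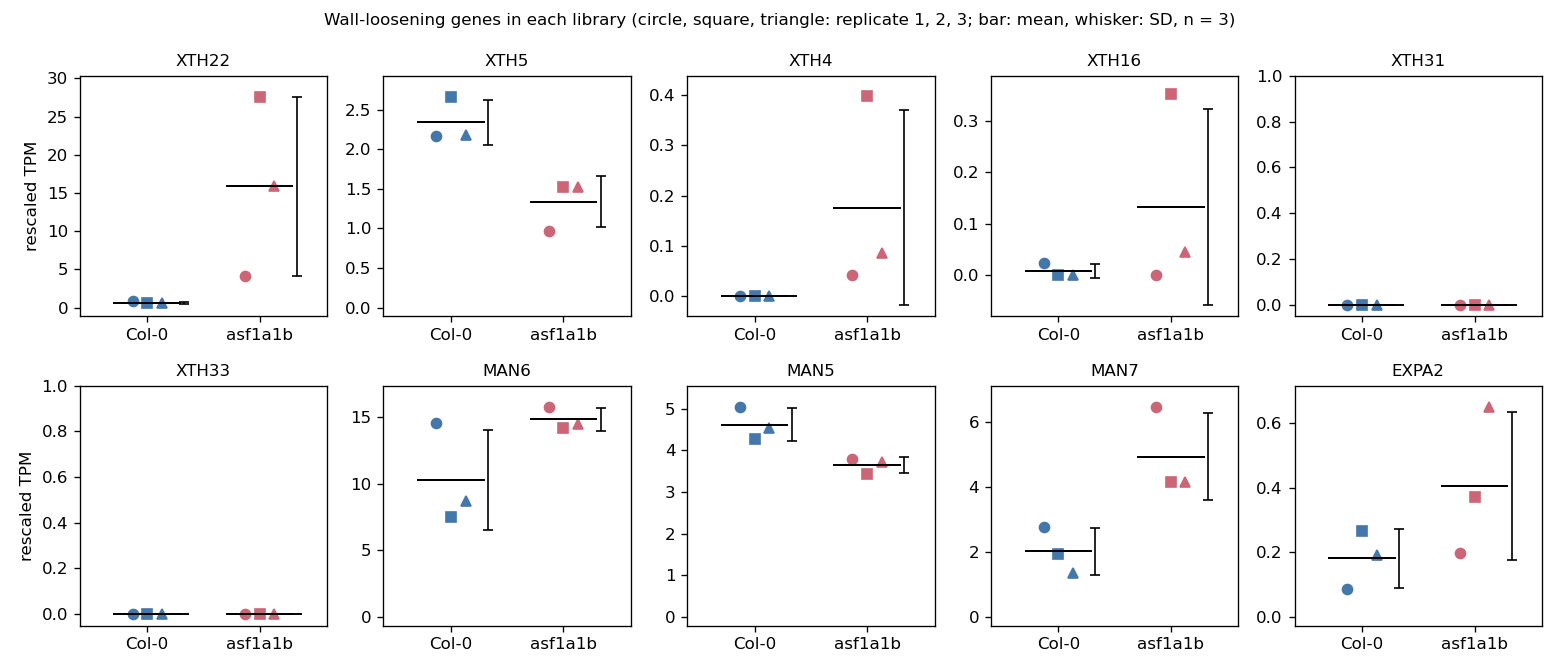
Rescaled TPM of the 10 genes in each library, on a linear axis of its own for each gene; symbols mark replicates 1 (circle), 2 (square) and 3 (triangle), bars the group mean and whiskers the SD (n = 3). XTH22 and MAN7 are higher and XTH5 lower in all asf1a1b libraries than in all Col-0 libraries, and XTH31 and XTH33 are at 0 throughout.

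Within the whole family of 33 XTH genes, 9 had no read in any library and 6 reached the level tested. Of these 6, 2 rose (XTH22 and XTH28), 2 fell (XTH25 and XTH5) and 2 did not pass (XTH11 and XTH27), where 30.6% of all tested genes passed. XTH28 (AT1G14720) rose from 13.8 ± 1.45 to 19.4 ± 2.85 rescaled TPM (n = 3, SD; adjusted p = 0.0452 in limma), and when 1 library was left out its call held only without asf1a1b replicate 2 (limma adjusted p otherwise up to 0.169). It also ended under median-of-ratios scaling (0.0767), with no filter (0.0627) and without the trend (0.0519). XTH11, named after its values were seen, was highest in replicate 1 of both genotypes, with 59.4, 21.3 and 12.4 in Col-0 and 74.0, 41.7 and 58.8 in asf1a1b (limma adjusted p = 0.123, and 0.0340 with the replicate number as a block), and its ratio of means was 1.87 over all libraries and 3.45 without Col-0 replicate 1. XTH25 made up 97.8% to 99.0% of the summed XTH level in Col-0 and 88.0% to 92.3% in asf1a1b, so the sum fell with it, from 3494 ± 314 to 1157 ± 270 (SD, n = 3). Without XTH25 the family summed to 83.1, 43.5 and 35.6 in Col-0 and 108.6, 105.7 and 111.5 in asf1a1b, and the groups did not overlap. XTH11, which did not pass, was the largest part of this remainder in every library except Col-0 replicate 3. In asf1a1b replicate 2 XTH22 gave 27.6 of the 105.7. The remainder therefore says little about the other XTH genes. XTH22 contributed 0.02% of the family's summed level in each Col-0 library and 0.29%, 3.13% and 1.36% in asf1a1b replicates 1, 2 and 3.

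Among the mannanases, MAN7 rose, its family member MAN1 fell, and MAN5 and MAN6 did not pass. MAN7 (AT5G66460, chr5:26538395-26541692, minus strand, 5 exons) had 2.76, 1.95 and 1.34 rescaled TPM in the Col-0 libraries, from 249, 171 and 127 reads, and 6.46, 4.16 and 4.15 in asf1a1b, from 510, 466 and 397 reads. The groups did not overlap, and replicate 1 was the highest in both. The mean rose from 2.02 ± 0.711 to 4.92 ± 1.33 (SD, n = 3). The ratio of means was 2.44 and the log2 fold change 0.98 ± 0.22 (SE; adjusted p = 0.0164 in limma). The call ended without Col-0 replicate 2 (limma adjusted p = 0.0592). For MAN7 the authors' deposited table lists 1.27 on the log2 scale (adjusted p 0.000334) and no mark, where the smallest change it marks is 1.5.

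MAN7 overlaps the gene upstream on its strand, AT5G66470, by 131 bases, and that gene rose too, from 2.96 ± 0.171 to 5.46 ± 0.795 (n = 3, SD; adjusted p = 0.00928 in limma). The next 2 genes upstream on the same strand, AT5G66480 and AT5G66490, looked at after their values were seen, had log2 fold changes of 0.74 and 1.29 (limma adjusted p = 0.0261 and 0.00169). Reads from the overlap cannot be assigned to either gene of a pair by strand here, since both lie on the same one.

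MAN6 (AT5G01930, chr5:361081-362901, minus strand, 5 exons) was the highest mannanase in either genotype. It had 14.56, 7.501 and 8.73 rescaled TPM in the Col-0 libraries and 15.8, 14.2 and 14.5 in asf1a1b. Col-0 replicate 1 reached the mutant level and the other wild-type libraries lay below it, so the groups overlapped. The means were 10.3 ± 3.77 and 14.8 ± 0.839 (SD, n = 3), and the log2 fold change was 0.54 ± 0.22 (SE; adjusted p = 0.0980 in limma). With the replicate number as a block the adjusted p was 0.0399 in limma, and without Col-0 replicate 1 it was 0.00408 with a log2 fold change of 0.80. MAN6 overlaps STN8, on the opposite strand, by 230 bases, and the strand setting of the counting is not given in the sources used here. STN8 had means of 9.75 and 12.0 and did not pass (limma adjusted p = 0.219). On its other side AT5G01940 fell from 4.74 ± 0.460 to 2.48 ± 0.295 (n = 3, SD; adjusted p = 0.00788 in limma).

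MAN5 (AT4G28320, chr4:14018183-14020323, minus strand, 5 exons) had 5.05, 4.28 and 4.53 rescaled TPM in the Col-0 libraries and 3.79, 3.44 and 3.71 in asf1a1b. Every mutant library lay below every wild-type library, yet the difference did not pass (log2 fold change -0.27 ± 0.12, SE, limma adjusted p = 0.125). MAN1 (AT1G02310), outside the 10 genes, fell from 8.92 ± 2.56 to 3.70 ± 0.963 (n = 3, SD; log2 fold change -1.07 ± 0.22 SE, adjusted p = 0.0119 in limma), and its call ended without asf1a1b replicate 3 (limma adjusted p = 0.0512). A noncoding gene on the opposite strand, AT1G04103, overlaps MAN1 over 1710 bases, and without a known strand setting the level of MAN1 is uncertain. MAN2 stayed below the level tested, at 0.232 in Col-0 and 0.266 in asf1a1b, and MAN3 and MAN4 were listed at 0 in all libraries. Over the 7 mannanases the summed level was 34.6, 20.9 and 22.6 in Col-0 and 29.0, 26.7 and 26.3 in asf1a1b, which overlapped, while its makeup differed. MAN1 held 33.5% to 35.0% of the sum in Col-0 and 9.39% to 17.4% in asf1a1b, and MAN7 5.94% to 9.34% and 15.6% to 22.3%.

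**Figure D3:**
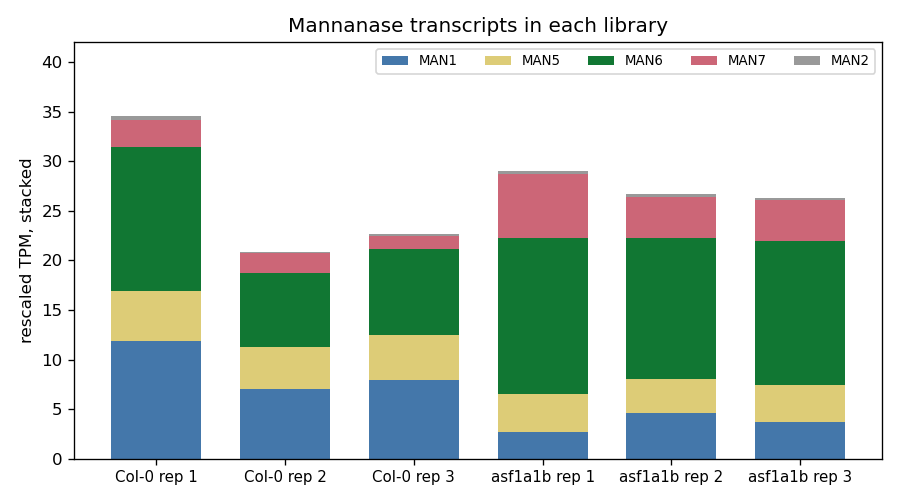
Rescaled TPM of the mannanase genes with reads, stacked for each library from MAN1 at the bottom. The stacks reach 20.9 to 34.6 in Col-0 and 26.3 to 29.0 in asf1a1b, with a smaller MAN1 and a larger MAN7 share in every asf1a1b library.

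EXPA2 (AT5G05290, chr5:1568694-1569915, plus strand, 3 exons), an expansin of the endosperm of germinating seeds, was read at traces. Wild-type libraries gave 3, 9 and 7 reads, or 0.086, 0.266 and 0.192 rescaled TPM, and mutant libraries gave 6, 16 and 24 reads, or 0.197, 0.370 and 0.650. The groups overlapped and the gene was below the level tested. With no filter on low values it did not pass (limma adjusted p = 0.216), so no difference was called. It overlaps AT5G05300, on the opposite strand, by 61 bases. Of all 35 expansin genes, 10 had no read and 3 reached the level tested. EXPA13 (AT3G03220) rose from 11.0 ± 2.43 to 16.6 ± 1.64 rescaled TPM (n = 3, SD; log2 fold change 0.56 ± 0.16 SE, adjusted p = 0.0365 in limma), and EXLA1 and EXPA3 did not pass (limma adjusted p = 0.222 and 0.0919). With the replicate number as a block EXPA3 was lower past the threshold (limma adjusted p = 0.0465). EXPA3 was tested only through its Col-0 level (2.02 in Col-0 and 0.890 in asf1a1b). When 1 library was left out the call of EXPA13 held only without Col-0 replicate 1 (limma adjusted p otherwise up to 0.123), and it ended with no filter (0.0576).

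Genes that build and trim the substrates moved in both directions. Of 18 genes of xyloglucan synthesis and trimming, 14 were tested, 4 rose, 2 fell and 8 did not pass, where 30.6% of all tested genes passed, and the median log2 fold change was 0.02 beside 0.01 over all tested genes. AXY8 and BGAL10, both among the 4, were tested only through their mutant level, AXY8 with 0.353 in Col-0 and 1.72 in asf1a1b. BGLC1, one that did not pass, was higher past the threshold with the replicate number as a block (adjusted p 0.292 without it and 0.0246 with it, limma). XXT1 (AT3G62720), a xylosyltransferase that adds the side chains, rose from 7.44 ± 0.457 to 16.8 ± 3.10 rescaled TPM, and XLT2 (AT5G62220), a galactosyltransferase, fell from 34.9 ± 7.84 to 14.7 ± 2.78 (n = 3, SD; adjusted p = 0.00316 and 0.00559 in limma). BGAL10 (AT5G63810), a beta-galactosidase that trims xyloglucan, rose from 0.926 ± 0.643 to 2.73 ± 0.272 (n = 3, SD; adjusted p = 0.0248 in limma), but its adjusted p reached as much as 0.0968 in limma with a pseudocount of 0.1 or when Col-0 replicate 2 or either of asf1a1b replicates 2 and 3 was left out, which ended the call. Of 12 genes of mannan synthesis, 3 were tested, 2 rose, 0 fell and 1 did not pass, beside the same 30.6%. CSLA2 (AT5G22740), a glucomannan synthase of seed mucilage, had 12.0, 6.44 and 9.66 in Col-0 and 23.8, 29.0 and 24.5 in asf1a1b, without overlap, and rose 2.75-fold (log2 fold change 1.40 ± 0.21, SE, limma adjusted p = 0.00391). MUCI10 (AT2G22900), which decorates that mannan with galactose, rose from 0.938 ± 0.344 to 1.80 ± 0.0697 (n = 3, SD; adjusted p = 0.0401 in limma), and like BGAL10 it was tested only through its mutant level. Its call ended in every fit without 1 library except the one without Col-0 replicate 1 (limma adjusted p up to 0.145) and with no filter (0.0536).

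**Figure D4:**
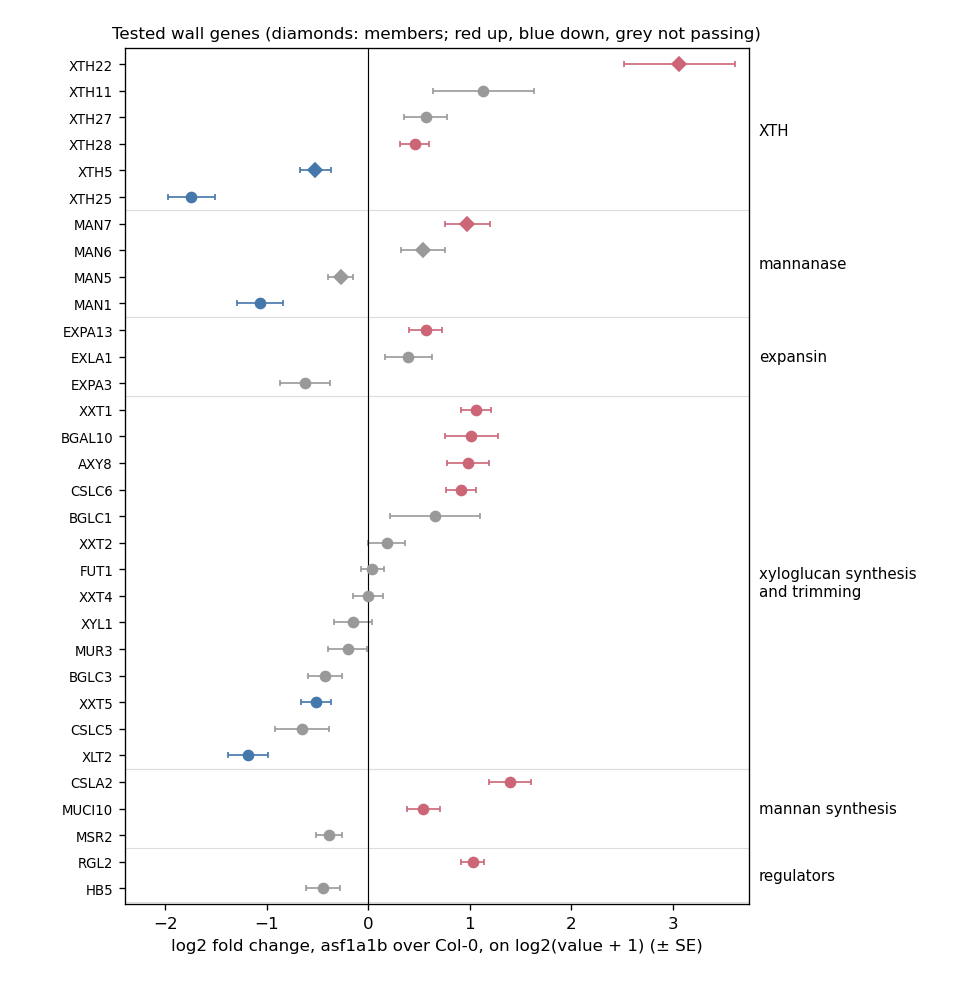
Log2 fold changes (asf1a1b over Col-0, on log2(value + 1), whiskers SE) of all tested genes of the XTH, mannanase and expansin families, of xyloglucan and mannan synthesis and of the regulators; diamonds are the 5 tested genes of the 10, and red, blue and grey mark higher, lower and not passing. XTH22 has the highest value at 3.07 and XTH25 the lowest at -1.74.

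Regulators linked to these genes were mostly at traces. Of 7, 2 were tested, 1 rose, 0 fell and 1 did not pass, where 30.6% of all tested genes passed. With 2 tested genes this count says little about the regulators. RGL2 (AT3G03450) encodes a DELLA protein that holds back germination, and it rose from 8.24 ± 0.617 to 17.9 ± 1.44 rescaled TPM (n = 3, SD; adjusted p = 0.00166 in limma), and the homeodomain gene HB5 did not pass (limma adjusted p = 0.0826, and 0.0428 and lower with the replicate number as a block). NAC25 and NAC1L, factors known to act on EXPA2 in the endosperm, had 0 and 17 reads over the Col-0 libraries and 3 and 36 over the asf1a1b libraries. BZIP44, known as a regulator of MAN7, gave 0, 1 and 0 reads in wild-type seeds and 2, 33 and 8 in asf1a1b, most of them in replicate 2.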

How the data were processed

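The submitters' processing notes name fastp 0.23.4, HISAT2 2.2.1 and TAIR10. No source used here gives the counter, the annotation, the strand setting or the rescaling. The authors deposited signal values for 32833 genes that the table's name calls TPM, with library totals from 915126 to 1049698, and a table of their own log2 fold changes and p-values. Read numbers were recovered for 32548 genes as value times merged exon length (RefSeq TAIR10.1) over 1 step per library (99.30% to 99.42% of checked values within 0.1 of a whole number). A floor is 3 counts and reflects counting error alone.

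The deposited values were taken as log2(value + 1), and limma (version 3.58.1, R version 4.3.3) was run on the 14663 genes with a mean of at least 1, using lmFit and eBayes with a trend. Genotype was the only term, tests were two-sided, and p-values were adjusted by Benjamini-Hochberg over all these genes, with a threshold of 0.05. A log2 fold change on this scale understates the change of low genes. Ratios are of group means of the deposited values. The code was tested on simulated data. Python 3.11.15, pandas 2.3.3, matplotlib 3.10.9 and Biopython 1.88 did the rest.

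The 10 genes and all lists (families, synthesis genes, regulators and markers of endosperm, seed coat mucilage cells and green tissue) were chosen with earlier results of these data known. Named beside the 10 were ASF1A and ASF1B, up to 3 called genes of each list by absolute log2 fold change, all mannanases, the XTH genes beside XTH22, called direct neighbours and the 3 genes most correlated with XTH22.

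Libraries with the same number deviated together from their group means over 14663 genes (correlations 0.427, 0.144 and 0.327 for replicates 1, 2 and 3, all above 0.1), which by the rule used pairs them. The labels give no batch or day behind the number, and asf1a1b replicate 2 had a higher correlation, 0.381, with Col-0 replicate 3. The deviations of a gene sum to 0 within a group, so these correlations are not independent of each other. The reported fit leaves the number out, and fits with it as a block are given as an alternative. Alternatives were a replicate block, another pseudocount, filters, scalings, no trend, limma-voom on recovered reads and leaving out each library.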

Additional observations from a re-analysis of the deposited data

How the results depend on the processing

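XTH22, XTH25, XXT1, XLT2, CSLA2 and RGL2 kept their call and direction in all 14 alternatives, and no named gene changed sign in any of the 300 alternative values computed for 22 genes. Of these values 257 fell on the same side of the threshold as in the reported fit, 41 lost their call and 2 gained one, both for MAN6. Over all genes 4494 of 14663 passed, and 5825 of 14663 with the replicate block. It was 2544 of 9860 with a mean of at least 5 and 5055 of 25774 with no filter. When 1 library was left out 1767 to 4999 passed, of 14536 to 14733 tested. With a mean of at least 5 only 2 of the 10 genes were tested, and 1 passed. So did 1 of 2 mannanases, 3 of 9 genes of xyloglucan synthesis and trimming and 1 of 2 of mannan synthesis. With no filter 0 of 25 expansins passed in limma (4 at an unadjusted p under 0.05, and 1 passed with limma-voom on recovered reads at the usual filter). Of 11 genes of mannan synthesis 1 passed with no filter. Under the replicate block 4 of the 5 tested genes of the 10 passed, the fourth being MAN6. So did 2 of 3 expansins and 2 of 2 regulators, with XTH11, EXPA3, BGLC1, HB5 and FLY1 gained. Leaving out 1 library gave 1 to 4 of the 5 tested genes of the 10, 2 to 5 of 6 XTH genes and 1 to 3 of 4 mannanases. Of 3 expansins 0 to 2 passed (at 0, 1 had an unadjusted p under 0.05). The numbers were 3 to 8 for xyloglucan synthesis and trimming (13 or 14 tested), 1 to 2 of 3 for mannan synthesis and 1 to 2 of 2 regulators. The causes were not tested. Median-of-ratios scaling moved the median log2 fold change of all tested genes from 0.01 to -0.05. Thinning reads to the lowest library total, an alternative chosen after seeing the data, changed the number of XTH, mannanase and expansin genes with a read only in asf1a1b replicate 2, from 52 to 51 of 75. Depth limits XTH4, XTH16 and EXPA2, with 34, 21 and 65 reads over all libraries.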

Other observations

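Several XTH genes below the level tested were read more in mutant than in wild-type seeds. These genes were picked once their values were known. XTH23 gave 10, 4 and 8 reads in wild-type seeds and 39, 121 and 68 in asf1a1b, and its level was 0.156 and 1.48 rescaled TPM. XTH24 gave 0, 2 and 0 reads in wild-type seeds and 6, 96 and 22 in asf1a1b, and XTH10 had none in Col-0 and 0, 50 and 8 in asf1a1b. With no filter on low values XTH23 passed, as did XTH18 and XTH6 (limma adjusted p = 0.0112, 0.00992 and 0.032). Of the 24 XTH genes tested that way 4 rose and 1 fell, beside 3085 and 1970 of all 25774 genes. XTH24 and XTH10 did not pass that way (limma adjusted p = 0.138 and 0.27). XTH3, XTH13 and XTH29, also at traces, had a lower mean in asf1a1b. Of the 41 XTH, mannanase and expansin genes with reads below the level tested, 26 had their highest value in asf1a1b replicate 2 (63.4%), where 38.7% of all such genes had theirs. Of the 24 XTH genes with reads, 6 had them in asf1a1b alone and 0 in Col-0 alone, where over all 25494 genes with reads the shares were 11.2% and 2.28%. Without asf1a1b replicate 2 the XTH numbers were 5 and 3 of 23, and over all genes 7.45% and 4.13%. Of 25 expansin genes with reads, 5 were read in asf1a1b alone and 1 in Col-0 alone, and without that replicate 2 and 2 of 22. The difference from all genes was not tested, and the XTH and expansin counts are small.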
